A study of Mus musculus with 12 samples.

Results

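The 6 genes Rgs16, Mlxipl, Txnip, Pnpla3, Khk and Tkfc, which belong to the response of the liver to sugar through the transcription factor ChREBP, were taken by symbol from a table of 55487 rows. They were chosen on measured values of these same libraries, the difference between SAP and control, so that difference is described here and not tested. The livers came from Balb/c mice of wild-type genotype, 6 weeks old, and gave 6 control libraries (control 3 to control 8) and 6 libraries of severe acute pancreatitis, labelled SAP (SAP 10 to SAP 15). The SAP animals received caerulein, a cholecystokinin analogue that overstimulates the acinar cells of the pancreas, whereas the labels name no agent for the controls. Livers were snap-frozen and RNA was extracted with Trizol. Although the design text speaks of more than 1 mouse model, only 1 strain appears in the labels. Whether every library is its own animal is not labelled, and the p-values then measure only how these libraries spread. The sources used here name no dose, no time after caerulein and no feeding state. Values are TPM, a level scaled to a common total and corrected for transcript length, and log2 differences are SAP minus control on log2(TPM + 1). Requiring 1 TPM or more in 6 or more libraries kept 11344 genes, among them 5 of the 6 members, and Pnpla3 did not pass it.

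ChREBP, encoded by Mlxipl, is held in an inactive state when sugar is scarce and is activated by products of glucose and fructose metabolism. With its partner Mlx it binds paired E-boxes called carbohydrate response elements and raises transcription of genes of glycolysis, fructolysis and fat synthesis. Txnip, which encodes an inhibitor of thioredoxin and of glucose uptake, and Pnpla3, which encodes a lipid droplet protein, are known targets. Rgs16 encodes a protein that ends signalling by G protein-coupled receptors of the Gi and Gq classes, and in liver it is known to follow feeding and glucose. Khk encodes ketohexokinase, which commits fructose to metabolism, and Tkfc encodes triokinase, which phosphorylates the glyceraldehyde made from fructose.

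The bases before the RefSeq starts of 4 members are shown because they differ in the E-box that ChREBP is known to read. All 6 members matched the RefSeq promoter table (build GRCm38.p6), in 7 windows because Mlxipl has a pair of starts. Each sequence is on the plus strand and ends at or before the base upstream of the RefSeq start, and capitals mark the motifs found.
Txnip (chr3:96557807-96557956): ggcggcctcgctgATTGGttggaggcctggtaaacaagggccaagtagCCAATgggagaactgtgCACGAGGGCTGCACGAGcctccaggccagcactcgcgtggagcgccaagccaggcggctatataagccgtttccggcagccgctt
Khk (chr5:30921476-30921505): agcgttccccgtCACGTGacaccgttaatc
Mlxipl, upstream start (chr5:135089740-135089889): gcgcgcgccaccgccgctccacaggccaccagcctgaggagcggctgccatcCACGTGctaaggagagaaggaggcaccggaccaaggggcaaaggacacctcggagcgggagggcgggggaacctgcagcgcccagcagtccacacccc
Rgs16 (chr1:153740203-153740352): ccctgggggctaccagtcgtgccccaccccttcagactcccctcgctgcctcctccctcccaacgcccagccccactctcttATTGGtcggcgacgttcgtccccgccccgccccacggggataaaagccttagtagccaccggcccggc
In the Txnip sequence the capitals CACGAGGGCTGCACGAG, which begin 85 bases before the start, are a pair of E-box-like units separated by 5 bases. The pattern searched was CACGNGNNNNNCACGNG on both strands, and 16 of the 32851 windows in the table held it (0.0487%). The remaining capitals in Txnip are CCAAT boxes, 1 of them on the opposite strand, which begin 137 and 102 bases before the start. In Khk the capitals are an E-box (CACGTG), beginning 71 bases before the RefSeq start. The GENCODE M21 annotation starts Khk further upstream, at 30921431, so this E-box lies inside the gene as annotated there. For that reason only 30 bases are printed for Khk. In Mlxipl the capitals are also an E-box, beginning 98 bases before the upstream start, and the window of the other start, 17001 bases downstream, held none. The Rgs16 window held no E-box, and its capitals, ATTGG, are a CCAAT box on the opposite strand that begins 68 bases before the start. The windows of Pnpla3 and Tkfc held no E-box either. The windows searched were 300 bases long and so reach beyond the stretches printed. CACGTG was found in 7.15% of them and CCAAT in 37.4%, each searched on both strands, while no window held the perfect element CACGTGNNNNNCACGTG. The motifs were chosen after the windows had been seen, and a match describes letters and not binding.

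Rgs16 had the widest difference of the 6 members. The gene lies on chromosome 1 from 153740349 to 153745468 on the plus strand (GRCm38, GENCODE M21). Its level in the control libraries 3 to 8 was 140.3, 161.09, 162.45, 243.95, 122.51 and 97.31 TPM. In SAP 10 to SAP 15 it was 4.02, 11.74, 2.9, 3.92, 0.97 and 1.12 TPM. The groups did not overlap, and the lowest control library was 8.29-fold above the highest SAP library. The mean was 155 ± 50.2 TPM in control and 4.11 ± 3.96 TPM in SAP (SD, n = 6 each), a ratio of 37.6. The log2 difference was -5.17 with a standard error of 0.39, the second widest decrease among the genes tested. Within SAP, Rgs16 ranged 12.1-fold, with SAP 11 far above the others and SAP 14 and SAP 15 near 1 TPM. The control libraries ranged 2.51-fold.

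Mlxipl, the gene of ChREBP itself, was also lower in each SAP library than in any control library. It lies on chromosome 5 from 135089890 to 135138382 on the plus strand. Control levels were 52.99, 55.78, 40.55, 65.59, 69.36 and 59.22 TPM in libraries 3 to 8. SAP levels were 24.81, 15.11, 35.41, 9.79, 6.31 and 9.8 TPM in libraries 10 to 15. The groups came close without touching, since control 5 stood only 1.15-fold above SAP 12. The means were 57.2 ± 10.2 and 16.9 ± 11.1 TPM (SD, n = 6 each), and the log2 difference was -1.91 with a standard error of 0.33. The spread within SAP followed a split of the libraries by Xist, an RNA retained in the nucleus. The labels name no sex and no batch, so what the split stands for is not known. Xist was low, 4.59 to 17.14 TPM, in control 5 and in 4 SAP libraries (11, 13, 14 and 15), and it was 49.07 to 60.66 TPM in the 7 that remained. Mlxipl was 24.81 and 35.41 TPM in the high-Xist SAP libraries and 6.31 to 15.11 TPM in the low-Xist ones, and its level was also lowest among controls in control 5. The log2 difference of Mlxipl was -1.34 with a term for this split in the fit and -1.0 when only the 7 high-Xist libraries were kept. The low-Xist libraries hold 1 control library only and give no within-split spread for that group, and the part of this split in the Mlxipl difference was not tested.

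Txnip differed between the groups with little spread within either. It lies on chromosome 3 from 96557957 to 96561883 on the plus strand. Control levels were 71.97, 61.94, 70.34, 78.1, 72.34 and 50.92 TPM, and SAP levels were 23.05, 18.28, 18.49, 14.55, 11.98 and 14.44 TPM, in the same order of libraries. The lowest control library, control 8, was 2.21-fold above the highest SAP library, SAP 10. The means were 67.6 ± 9.69 and 16.8 ± 3.95 TPM (SD, n = 6 each), a ratio of 4.02, with a log2 difference of -1.96 and a standard error of 0.14.

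Pnpla3 was expressed at low levels in both groups. It lies on chromosome 15 from 84167837 to 84187236 on the plus strand. Control levels were 0.9, 0.27, 2.73, 0.77, 0.44 and 0.89 TPM, and SAP levels were 0.2, 0.32, 0.42, 0.08, 0.04 and 0.24 TPM. The groups overlapped, because control 4 lay below SAP 11 and SAP 12. Control 5 alone exceeded 1 TPM. The log2 difference was -0.63 with a standard error of 0.23 from the SDs of the groups, and it was -1.63 with a pseudocount of 0.1, -0.39 without SAP 14 and control 5 and -0.32 in the high-Xist libraries alone.

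The pair of fructose enzymes had the highest levels of the 6 genes. Khk lies on chromosome 5 from 30921431 to 30931248 on the plus strand. Its control levels were 536.97, 569.39, 784.75, 676.67, 558.52 and 634 TPM, and its SAP levels were 215.22, 362.32, 311.48, 243.18, 199.56 and 463.96 TPM. All SAP libraries were below all control libraries, with SAP 15 closest to them, 1.16-fold under control 3. The means were 627 ± 93.3 and 299 ± 101 TPM (SD, n = 6 each), and the log2 difference was -1.12 with a standard error of 0.19. Tkfc lies on chromosome 19 from 10587791 to 10605654 on the minus strand. Its control levels were 345.8, 341.08, 481.49, 480.84, 418.91 and 440.34 TPM, and its SAP levels were 108.46, 172.93, 209.14, 98.47, 112.29 and 236.26 TPM. The groups again did not overlap, and SAP 15 was again the highest SAP library. The means were 418 ± 62.6 and 156 ± 58.4 TPM (SD, n = 6 each), and the log2 difference was -1.48 with a standard error of 0.21. Tkfc shares 8171 bases with Cyb561a3 and 328 bases with Ddb1, both on the opposite strand. The sources used here do not say whether the counting used strand, so reads of the shared bases cannot be assigned with certainty. Cyb561a3 and Ddb1 differed by 0.06 and 0.12 on the log2 scale and did not pass the threshold in limma (adjusted p = 0.614 and 0.164).

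**Figure D1:**
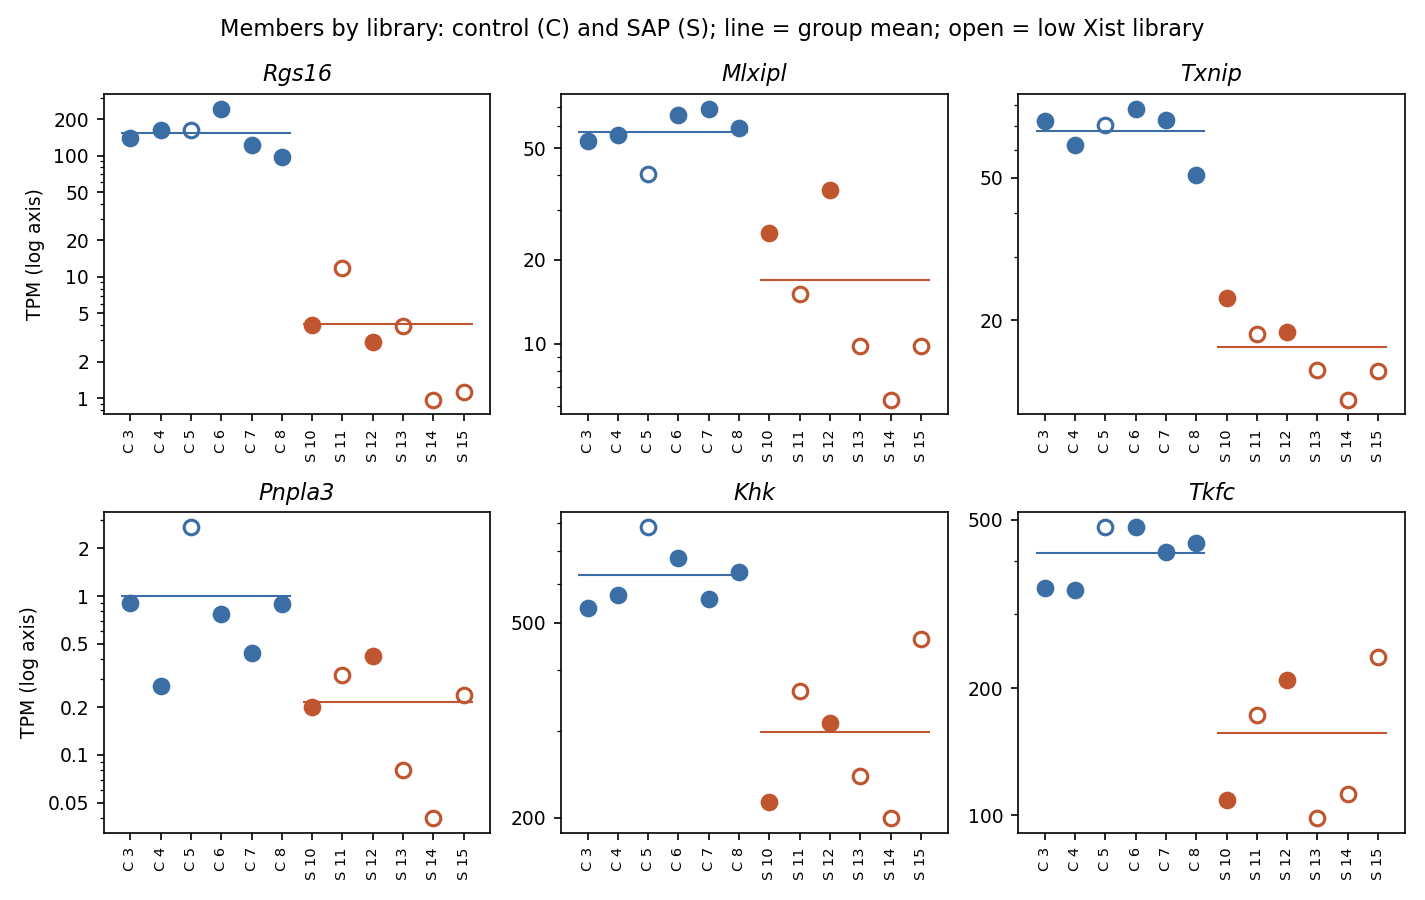
TPM of each member (log axis, a separate scale in each panel) in control libraries 3 to 8 (C, blue) and SAP libraries 10 to 15 (S, orange), with the group mean as a line and open circles for the low-Xist libraries. Control and SAP are apart in every panel except Pnpla3, and SAP 11 stands above the other SAP libraries for Rgs16.

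For 5 of the 6 members the groups did not overlap. Over all 11344 genes 15.1% were lower without overlap of the groups, and 25.0% passed the limma threshold (adjusted p under 0.05) as lower in SAP. Since the members were selected on this contrast, nothing is read from their count. The order of the members by level differed between the groups. In control Khk was highest, then Tkfc and Rgs16, then Txnip and Mlxipl, with Pnpla3 lowest, and Rgs16 exceeded both Txnip and Mlxipl in 6 of 6 libraries. In SAP Rgs16 was below both of them in 6 of 6 libraries, 0.282 ± 0.268 times Mlxipl against 2.78 ± 0.973 times in control (SD, n = 6 each). Txnip and Mlxipl could not be ordered, since Mlxipl was the higher in 1 control library and 2 SAP libraries. Khk exceeded Tkfc in all 12 libraries, by 1.51 ± 0.133 times in control and 1.96 ± 0.327 times in SAP.

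Several other measures were set beside the members. The share of TPM held by a list of acute-phase genes was 3.48% to 3.99% in control and 22.3% to 35.8% in SAP, highest in SAP 14, and a TPM table gives every other gene a smaller share when a few genes take more. SAP 14 was also the lowest library for 5 of the 6 members, all but Tkfc. When TPM were rescaled outside that list, the log2 differences were -4.89 for Rgs16, -1.53 for Mlxipl, -1.58 for Txnip, -0.58 for Pnpla3, -0.71 for Khk and -1.08 for Tkfc. That scaling moved the median of all tested genes from -0.03 to 0.32 and the calls from 2211 higher and 2832 lower to 6299 and 1253. Of 7 hepatocyte markers 4 passed as lower, 1 as higher (Apoa1, 0.24 in log2) and 2 did not pass (Trf, -0.01, and Apob, 0.14). Their summed level was 98079 to 108717 TPM in control and 52086 to 68360 TPM in SAP, most of it from Alb, whose means were 65029 and 27673 TPM. The summed level of 9 neutrophil markers was 4.95 to 18.97 TPM in control and 35.62 to 109.37 TPM in SAP. Most of it came from S100a8 and S100a9, with SAP means of 25.8 and 46.8 TPM. Only 3 of the 9 reached the filter, all passing as higher, Retnlg only through the SAP group. Among the untested ones, the control and SAP means were 0.27 and 0.29 TPM for Mpo and 0.37 and 0.09 TPM for Camp. Pancreatic markers summed to 0.42 to 10.97 TPM in control and 0.57 to 0.99 TPM in SAP, with Ins1, Gcg and Sst at 0 throughout. The value of 10.97 TPM was control 8 alone, and no other control library was above 1.31 TPM. In bulk liver, fewer cells of a type and less RNA per cell cannot be told apart, and the part of these measures in the members' differences was not tested.

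The partners of ChREBP were described from a list of 4 genes, none of which passed the threshold in limma, with 1 (Max) at an unadjusted p under 0.05. Mlx, the obligate partner, was 30.8 ± 5.90 TPM in control and 30.6 ± 1.93 TPM in SAP, a log2 difference of 0.01 (SE 0.10, adjusted p = 0.957). Mlxip, the paralog of ChREBP known as MondoA, was 3.65 ± 1.20 and 3.61 ± 1.20 TPM (log2 difference -0.02, adjusted p = 0.951). The signs of both differences turned under other scalings or on leaving out a library. When scaled outside the acute-phase list, Mlx passed as higher (0.40), beside a median of 0.32 over all tested genes. Max, a further member of the network, had a log2 difference of 0.31 (adjusted p = 0.0570), and it passed as higher under each of 3 other scalings, with 0.36 to 0.69, and without control 5, SAP 12 or SAP 13. Max also passed in the high-Xist libraries alone (0.45, limma adjusted p = 0.0479) and without both SAP 14 and control 5 (0.41, limma adjusted p = 0.0141). With a filter of a mean of at least 5 TPM its limma adjusted p was 0.0476. Mnt, its repressor partner, had a difference of -0.01 (adjusted p = 0.967).

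Known ChREBP targets other than the members were mostly lower in SAP. Of 23 listed and tested, 20 passed as lower, 1 as higher and 2 did not pass, with a median log2 difference of -1.43 beside -0.03 over all tested genes. Among all tested genes 25.0% passed as lower and 19.5% as higher. The list was drawn up with earlier results of these data known. Acly, which makes cytosolic acetyl-CoA, fell from 149 ± 39.5 to 40.8 ± 4.48 TPM (log2 difference -1.81, SE 0.15, limma adjusted p = 8.7e-07). Klf10, a sugar-induced repressor, fell from 16.6 ± 3.17 to 5.28 ± 0.646 TPM (-1.47, SE 0.12). Tkt, transketolase of the pentose phosphate pathway, fell from 78.7 ± 4.11 to 35.8 ± 6.49 TPM (-1.13, SE 0.11). Further examples were chosen after their values were seen. Thrsp, a regulator of fat synthesis, lay between 532 and 1836 TPM in control and between 29.91 and 161.55 TPM in SAP, with a log2 difference of -3.91. Pklr, liver pyruvate kinase and the classic ChREBP target, fell by 1.76 on the log2 scale, and Fasn, fatty acid synthase, fell by 2.56. Arrdc4, an alpha-arrestin that responds to sugar as Txnip does, was 6.09 ± 0.879 and 5.46 ± 1.09 TPM (log2 difference -0.14, adjusted p = 0.368). Angptl8, a regulator of lipoprotein lipase, had a difference of 0.37 (adjusted p = 0.423). Fgf21, a hormone induced by sugar and by fasting, was the 1 gene higher, at 2.45 to 6.63 TPM in control and 4.41 to 15.65 TPM in SAP (0.81, adjusted p = 0.0262). That call was lost on leaving out any 1 of control 3, control 5, control 7, SAP 10 or SAP 14.

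**Figure D2:**
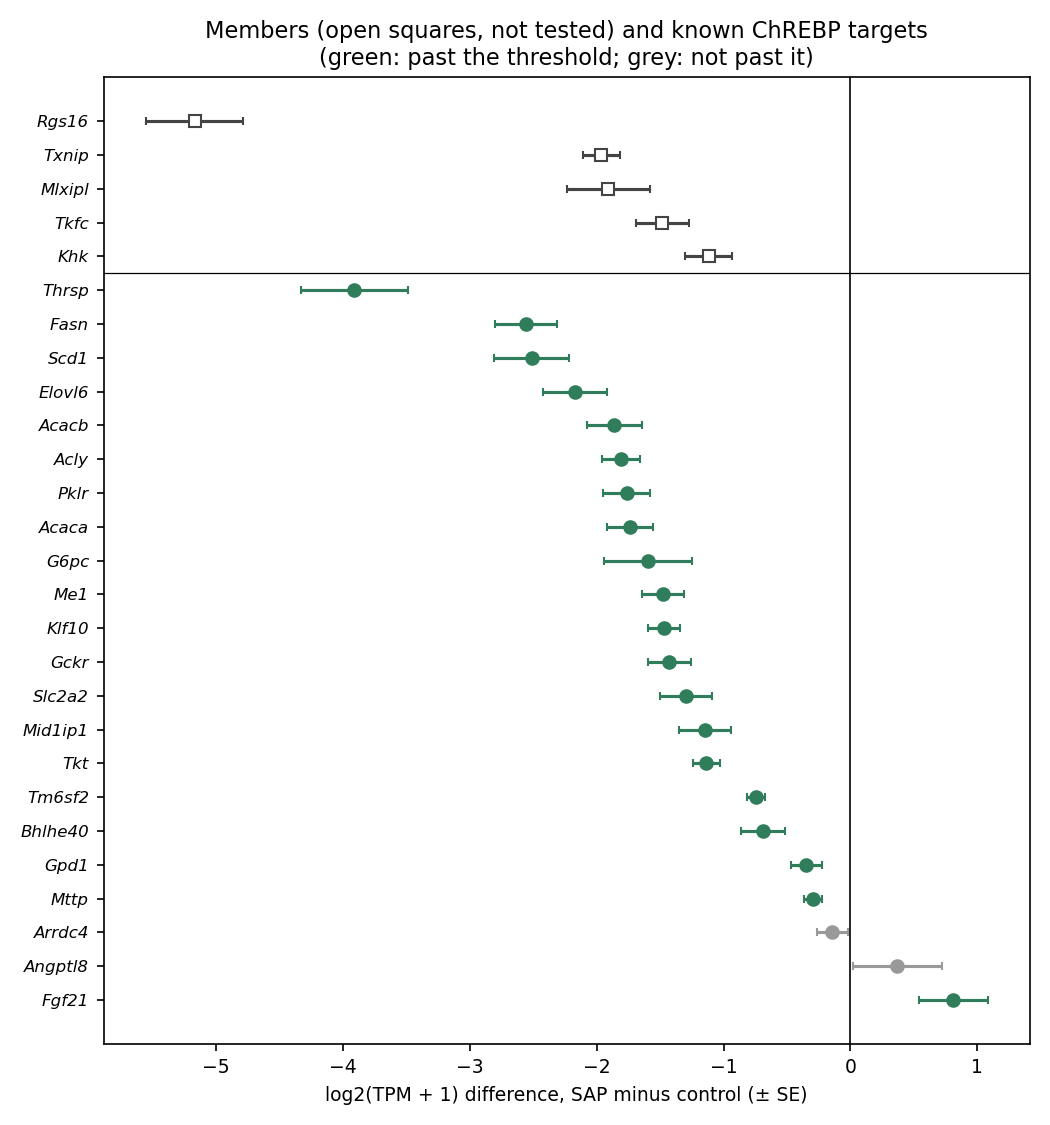
Log2(TPM + 1) difference, SAP minus control, with its standard error, for the 5 members that passed the filter (open squares, not tested) and for 22 of the 23 known ChREBP targets (circles, green where the adjusted p was under 0.05). All but 2 of the targets shown lie left of 0, and Rgs16 at -5.17 lies left of each of them.

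The fructose and glucose steps around Khk and Tkfc were less uniform. Of 7 further fructose genes, 3 passed as lower, 1 as higher and 3 did not pass (median -0.41). Scaled outside the acute-phase list, 3 were lower and 3 higher, with a median of -0.08 beside 0.32 over all genes. Slc2a2, the hepatic sugar transporter GLUT2, fell from 129 ± 17.0 to 54.7 ± 20.0 TPM (log2 difference -1.30, SE 0.20). Akr1b3, aldose reductase, which starts fructose synthesis from glucose, rose from 8.76 ± 1.17 to 12.4 ± 1.18 TPM (0.46, SE 0.09, limma adjusted p = 0.00113). Sord, the next enzyme of that route, fell by 0.76 on the log2 scale. Glyctk, which handles glycerate from fructose, was 71.5 ± 6.88 and 74.9 ± 12.1 TPM (adjusted p = 0.695). Of 11 genes of glucose entry and the pentose phosphate pathway, 10 were tested. Of these, 8 passed as lower and 2 as higher (median -1.08), beside 25.0% and 19.5% over all tested genes. The count higher was 1 on leaving out any 1 of control 5, control 6, control 7, control 8, SAP 10 or SAP 11. Gckr, which encodes a regulator of hepatic glucose use, fell by 1.43 on the log2 scale. Pgd, of the pentose phosphate pathway, fell by 0.89, while G6pdx, the enzyme that opens it, was higher by 0.39 (limma adjusted p = 0.0386).

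The other RGS genes did not resemble Rgs16 in level. Of 19, only 5 passed the filter, with 1 higher and 1 lower (4 higher and 1 lower when scaled outside the acute-phase list, 2 higher without any 1 of control 5, control 8, SAP 13 or SAP 14), and the 14 others had no library above 1.19 TPM. Rgs12 fell from 2.99 ± 0.530 to 1.0 ± 0.326 TPM (log2 difference -1.0, SE 0.12). It reached 1 TPM in 6 control and 3 SAP libraries, so it met the filter through the control group and its call is only a description. Rgs5, a pericyte gene, rose from 7.90 ± 0.967 to 10.4 ± 1.59 TPM (0.36, adjusted p = 0.0147), a call lost in the high-Xist libraries alone (adjusted p = 0.0626). Rgs3 had a difference of 0.57 (adjusted p = 0.0574) and passed as higher under each of 3 other scalings, and without control 5, SAP 13 or SAP 14. It also passed in the high-Xist libraries alone (1.08, limma adjusted p = 0.00357) and without both SAP 14 and control 5 (0.77, limma adjusted p = 0.0144). Rgs8, the neighbour of Rgs16 at 40026 bases, did not exceed 0.24 TPM. Of 8 alpha subunits of the Gi and Gq classes, on which Rgs16 acts, 5 were tested, with 1 higher and 2 lower, or 3 higher and 1 lower when scaled outside the acute-phase list. For both lists the shares over all tested genes were 25.0% lower and 19.5% higher, and under that scaling 6299 of 11669 genes were higher. Gnai2 rose from 57.3 ± 3.34 to 73.5 ± 4.57 TPM (0.35, SE 0.06). Gna14 was 1.03 to 3.19 TPM in control and 0.33 to 1.26 TPM in SAP, reaching 1 TPM in 1 SAP library only. Gna14 thus met the filter through the control group, and its call among the lower adds nothing. Gnaq was lower by 0.38 in log2 (adjusted p = 0.0180), a call lost when scaled outside the acute-phase list (-0.06, adjusted p = 0.629), in the high-Xist libraries (-0.18, adjusted p = 0.339), with a term for the Xist split (-0.33, adjusted p = 0.0722) and without SAP 14 and control 5 (-0.27, adjusted p = 0.0586).

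Txnip and Pnpla3 were set beside their families. Of 12 alpha-arrestin and thioredoxin genes, 11 were tested, and 8 passed as lower and 0 as higher in limma (0 higher at an unadjusted p under 0.05 as well), with 4 lower under quantile normalization (1 higher) and under scaling outside the acute-phase list (2 higher). Arrdc3, the alpha-arrestin with the widest change, fell from 105 ± 18.7 to 26.5 ± 12.7 TPM (log2 difference -2.09, SE 0.30), and Arrdc2 fell by 1.64. Txnrd2, the mitochondrial thioredoxin reductase, fell by 0.72 and Prdx1, a peroxiredoxin, fell by 0.60. Txn2, mitochondrial thioredoxin, was lower by 0.47, a call that did not hold under quantile normalization (-0.07). Of 7 genes of the patatin-like family and its cofactor, 5 were tested, with 1 lower, or 3 higher and 0 lower when scaled outside the acute-phase list. For both lists the shares over all tested genes were 25.0% lower and 19.5% higher, and under that scaling 6299 of 11669 genes were higher. Pnpla2, the triglyceride lipase ATGL, fell from 33.7 ± 2.70 to 24.3 ± 2.30 TPM (-0.46, SE 0.08), which did not hold when scaled outside the acute-phase list (-0.07). Pnpla6 had a difference of 0.30 (adjusted p = 0.291), which was 0.70 with a term for the Xist split (adjusted p = 0.00112).

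Other regulators of the same genes moved in both directions. Of 15 tested, 6 passed as lower and 2 as higher, beside 25.0% and 19.5% over all tested genes. The count higher was 1 on leaving out any 1 of control libraries 3 to 7 or SAP libraries 10 to 13. Quantile normalization gave 6 lower and 6 higher, and scaling outside the acute-phase list 5 lower and 7 higher. Under the latter scaling 6299 of 11669 tested genes passed as higher. Foxo3 and Foxo1, factors of the fasting response, fell by 1.31 and 0.91 on the log2 scale. The coactivator Ppargc1b was 1.14 to 1.54 TPM in control and 0.09 to 0.93 TPM in SAP, and it passed the filter only through the control group, so it had to differ and its call among the 6 adds nothing. Srebf1, the insulin-driven regulator of fat synthesis that shares targets with ChREBP, fell from 67.5 ± 11.9 to 24.9 ± 10.2 TPM (-1.50, SE 0.25). Since Rgs16 is known to have a daily rhythm in some tissues, clock genes were counted as well. Of 14 tested, 8 passed as lower and 4 as higher, beside 25.0% and 19.5% over all tested genes. The count higher was 2 on leaving out any 1 of control 4, control 5, SAP 10, SAP 11, SAP 12 or SAP 15. In the high-Xist libraries alone 1 passed as lower, beside 1847 of 11304 genes. SAP 10 and SAP 12 are the only SAP libraries there, and in SAP 12 Dbp (45.26 TPM) and Nr1d1 (34.68 TPM) were the highest of SAP, while Per1 (1.78 TPM) was the lowest. The part of SAP 12 in that count was not tested. Nr1d1, a repressor in the clock, fell by 2.11, and Cry1 rose by 1.22 on the log2 scale. The sources used here name no hour of collection. Markers of the zones of the liver lobule were counted too: 8 of 9 periportal genes passed as lower, and 6 of 8 pericentral genes as lower and 2 as higher (1 without control 8 or SAP 10), beside 25.0% lower and 19.5% higher over all tested genes.

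**Figure D3:**
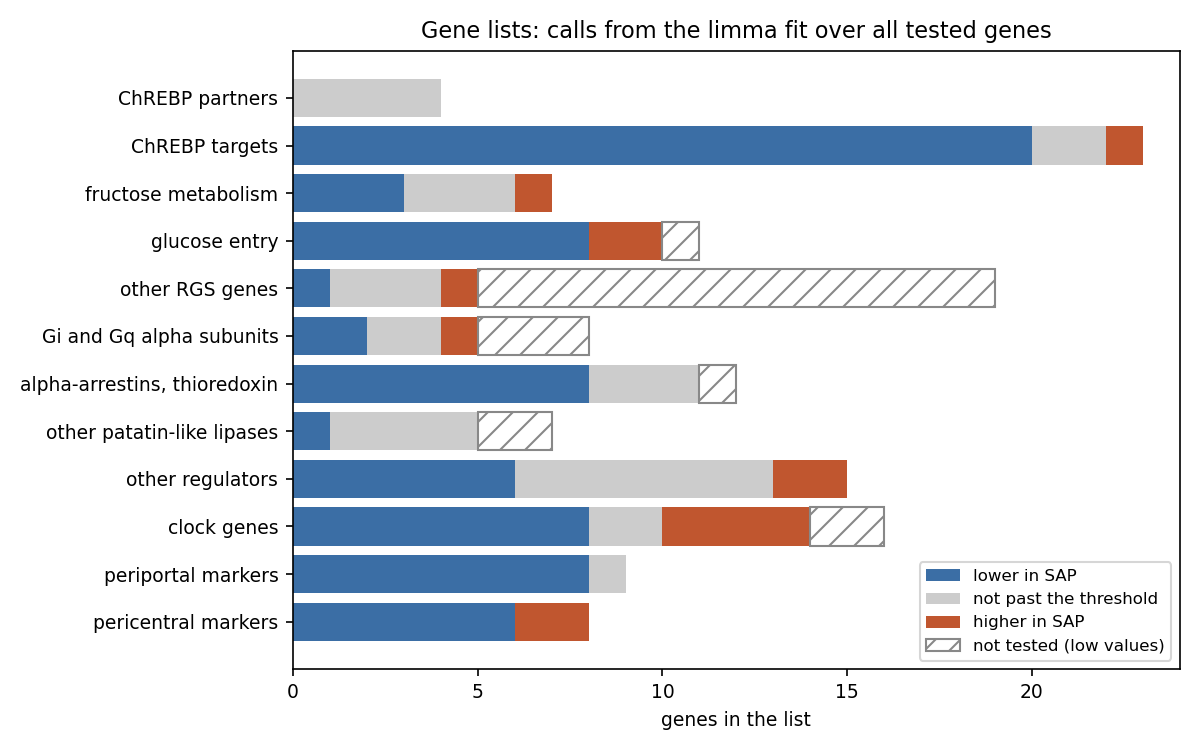
Number of genes in each list that passed the limma threshold as lower (blue) or higher (orange) in SAP, that did not pass (grey) or that were not tested for low values (hatched). The ChREBP target list has 20 of 23 genes lower, and the list of partners has 0 of 4 past the threshold.

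Within each group, where the rule that chose the members was not used, Rgs16 was compared with the other 5 members over 6 libraries. None of the 10 correlations passed an exact permutation test, whose smallest possible p was 0.00278, and the adjusted p was 0.946 for each r and at least 0.793 for each rho. The high-Xist SAP libraries are 2, too few for a value within that split. The largest were with Txnip, r = 0.72 in control (rho = 0.49, exact permutation p = 0.128 and 0.356) and r = 0.60 in SAP (rho = 0.71, exact permutation p = 0.210 and 0.136). Without the 2 libraries farthest from the median of Rgs16, r with Txnip was -0.63 in control (without control 6 and control 8) and 0.53 in SAP (without SAP 11 and SAP 14). The control value thus rested on those libraries. With Mlxipl, r was -0.04 in control and 0.40 in SAP, and with Tkfc it was 0.23 and -0.07.

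Khk and Tkfc went together most closely among the 15 pairs of members, a pair singled out after the values were seen. Their r was 0.83 in control (rho = 0.83, exact permutation p = 0.0389 and 0.0583) and 0.89 in SAP (rho = 0.71, exact permutation p = 0.0361 and 0.136). Adjusted over the 30 tests of all pairs, p was 0.354 for both values of r and 0.583 and 0.656 for rho, so neither passed. Without the 2 farthest libraries r was 0.69 in control and 0.83 in SAP. Mlxipl and Txnip had r = 0.86 in SAP (rho = 0.89, exact permutation p = 0.0250 and 0.0333, adjusted p = 0.354 and 0.583), and 0.04 in control. Leaving out SAP 12 and SAP 10, which are the high-Xist SAP libraries, gave 0.998 over SAP 11, SAP 13, SAP 14 and SAP 15 alone. Over so few libraries this step gave wide values of either sign. For Rgs16 in SAP, without SAP 11 and SAP 14, it gave -0.98 with Khk and -0.84 with Tkfc. For Mlxipl with Khk in control, without control 5 and control 7, it gave 0.98.

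**Figure D4:**
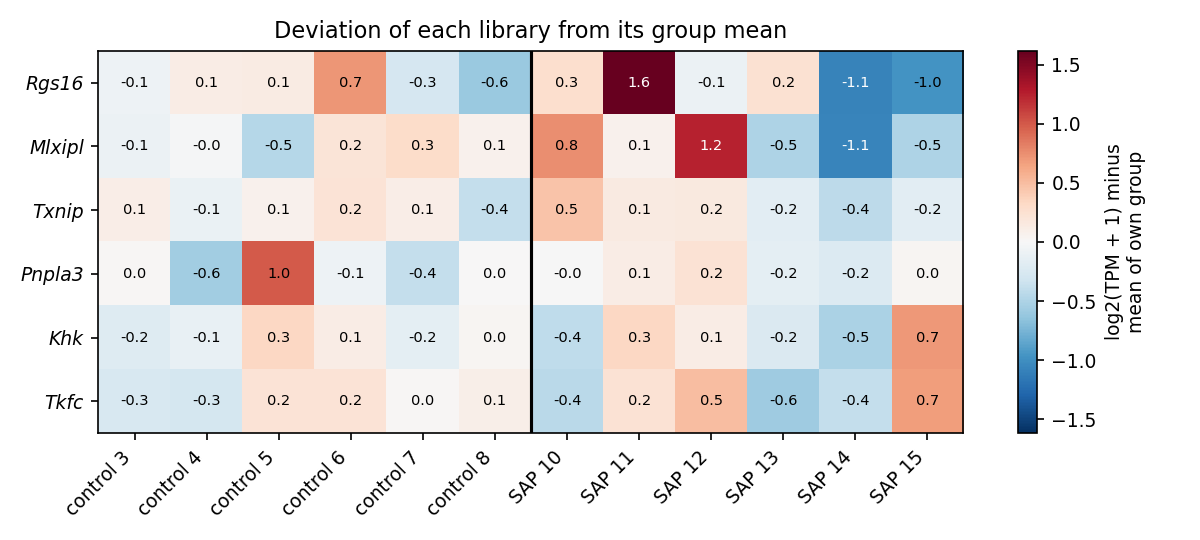
Log2(TPM + 1) of each member minus the mean of its own group, in each library (red above the mean, blue below, the vertical line between control and SAP). SAP 11 is 1.62 above its group mean for Rgs16, SAP 12 is 1.25 above for Mlxipl, and Khk and Tkfc are both highest in SAP 15.

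**Figure D5:**
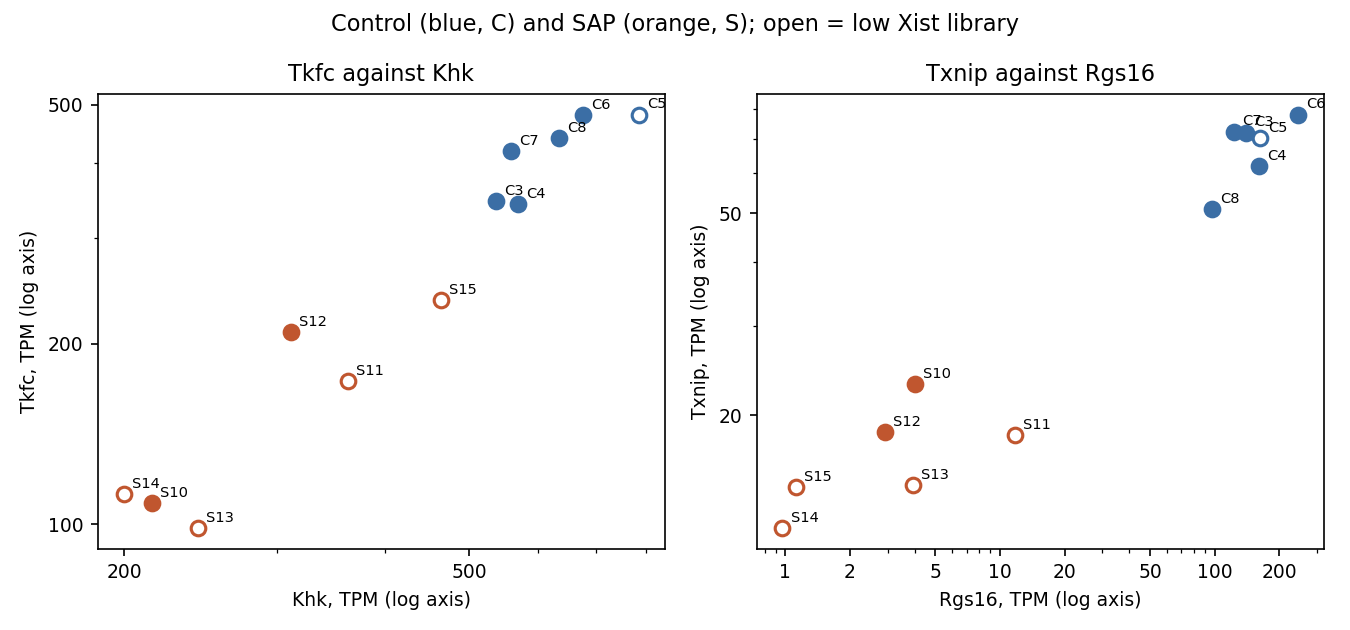
Tkfc against Khk and Txnip against Rgs16, in TPM on log axes, for control (C, blue) and SAP (S, orange) libraries, with open circles for low-Xist libraries. Within the groups r of Tkfc with Khk is 0.83 and 0.89, not past the threshold after adjustment, and SAP 11 has the highest Rgs16 of the SAP libraries with Txnip at 18.28 TPM.

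The genes most like each member were ranked by the correlation of deviations from the own group mean over the 12 libraries, among 7376 genes with a mean of at least 5 TPM. The top of so many candidates is high in part by selection, and no chance level was computed, so the ranking is a description only. For Rgs16 they were Depp1 (r = 0.91), Htatsf1 (0.89), Arrdc3 (0.85), Itfg2 (0.82) and Tjp1 (0.82). Within control and SAP apart, r was 0.66 and 0.98 for Depp1, 0.48 and 0.98 for Htatsf1, and 0.49 and 0.90 for Arrdc3. For Itfg2 it was 0.93 and 0.86, and for Tjp1 0.81 and 0.84. Depp1, a gene known to follow fasting, fell from 85.9 ± 30.2 to 9.40 ± 7.26 TPM (log2 difference -3.24, SE 0.39, limma adjusted p = 2.1e-05). Htatsf1, Itfg2 and Tjp1 did not pass the threshold between the groups. Without SAP 11, chosen after its value was seen, r was 0.83 for Depp1, 0.81 for Htatsf1, 0.83 for Arrdc3, 0.73 for Itfg2 and 0.76 for Tjp1, and the 5 genes then ranked 7, 16, 6, 77 and 52 in the same order. The most like Mlxipl were Rnf4, Gm21811 and Mtmr3 (r = 0.95 to 0.96), and the most like Txnip were Tatdn3, Vps33a and Ptprb (0.90 to 0.91). Pnpla3 was most like Sem1, Apoo and Hmgb3 (0.87 to 0.97), Khk was most like Gbe1, Sar1b and Pigyl (0.94 to 0.95) and Tkfc was most like Txnl4b, Dapk2 and Prpsap2 (0.93 to 0.97). Gbe1, the glycogen branching enzyme, fell from 60.7 ± 9.14 to 34.1 ± 9.04 TPM.

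Of the neighbours of Khk, Emilin1, which ends 154 bases before Khk, rose from 12.4 ± 2.82 to 21.4 ± 1.48 TPM (log2 difference 0.76, SE 0.12). Cgref1, 1895 bases after Khk on the opposite strand, was 0.21 to 1.02 TPM in control and 2.7 to 12.18 TPM in SAP. It reached the filter in 1 control library and all 6 SAP libraries, so it passed through the group where it is high, and no p is given for it. Next to Mlxipl, Tbl2 rose by 0.46 in log2, and next to Pnpla3, Samm50 fell by 0.58 in log2.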

How the data were processed

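The authors deposited 1 table of 55487 rows, whose values were taken to be TPM. No header or label names the unit, which was inferred because each library summed to between 993412 and 995793. The submitters' processing notes name edgeR, without version or role. The aligner, build, annotation and strand handling are named in none of the sources used here. Depth cannot be had from TPM, and no counting interval is given. Of the 12 sample columns, 0 were left out. The members and all gene lists were chosen with earlier results of these data known.

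log2(TPM + 1) was fitted with limma 3.58.1 (R 4.3.3, trended prior) and group as the only term, over genes reaching 1 TPM in 6 or more libraries. Tests were two-sided with Benjamini-Hochberg adjustment over 11344 genes at 0.05. Of rows sharing a symbol, the one with the highest median kept it. From each list the 3 tested genes with the smallest adjusted p were named, with the 5 genes most like Rgs16, the 3 most like each other member and the nearest protein-coding neighbours. Some genes under this rule are left out of the text and plots. In simulated data with 200 changed genes spread over 3 sizes, the fit over 11344 genes recovered 36 of 67 at a log2 change of 0.5, 62 of 67 at 1 and 64 of 66 at 2, with 14 false calls among 176. The simulated noise was independent between genes, and far fewer genes were changed than the 2211 higher and 2832 lower called here. These rates therefore need not hold for the libraries themselves. Alternatives were 3 scalings, another pseudocount, other filters and limma settings, a term for the low-Xist libraries, and libraries left out.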

Additional observations from a re-analysis of the deposited data

Results flagged for a closer look

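Of 156 checks, covering 78 named genes in both groups of 6, 13 found a library standing apart from the other 5 of its group. Chance flags about 1 in 20 groups, a rate that makes no allowance for genes named because they vary like a member. Among the members, Rgs16 was 11.74 TPM in SAP 11 while the remaining SAP libraries had 0.97 to 4.02 TPM, and Pnpla3 was 2.73 TPM in control 5 against 0.27 to 0.9 TPM in the other controls. SAP 12 stood apart for Mlxip (1.26 TPM, others 3.79 to 4.68), Nr1d1 (34.68 TPM, others 7.36 to 14.88) and Ppargc1b (0.93 TPM, others 0.09 to 0.25). Foxo1 was 2.21 TPM in SAP 14, below 3.63 to 4.45 TPM in the others. Control 5 also stood apart for Hmgb3 (10.93 TPM, others 6.99 to 7.99) and Rnf4 (32.17 TPM, others 34.61 to 35.71). Hmgb3 was named as like Pnpla3, which was highest in control 5, and Rnf4 as like Mlxipl, which was lowest there. The flags of Hmgb3 and Rnf4 are therefore not independent of those members. Prpsap2 was 9.6 TPM in control 6 against 7.78 to 8.44 TPM. Among cell type markers, SAP 10 was highest for Marco of Kupffer cells (76.63 TPM, others 34.11 to 49.09) and for Gzma of cytotoxic lymphocytes (3.52 TPM, others 1.04 to 1.74). Gzma was 1.53 TPM in control 4 (others 0.16 to 0.66), and S100a8 of neutrophils was 6.24 TPM in control 3 (others 1.11 to 2.78).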

How the results depend on the processing

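Over 25 settings, the main one included, each member stayed lower in SAP, with log2 differences for Rgs16 of -5.62 to -4.89, Mlxipl -2.16 to -1.0, Txnip -2.06 to -1.58, Pnpla3 -1.63 to -0.32, Khk -1.26 to -0.71 and Tkfc -1.62 to -1.08. The other filters and limma settings among them could not change a member's difference. Another choice among rows sharing a symbol left it unchanged. Since the members were chosen on this contrast, their staying lower is a description. Scaling outside the acute-phase list gave -1.58 for Txnip, -0.71 for Khk, 6299 genes higher and 1253 lower, 3 fructose genes higher (1 in the report), and turned the sign of Mlxip (0.30), Abhd5 (0.16) and Kdr (0.19). TMM-like scaling (2790 higher, 2729 lower) turned Mlxip to 0.027 and r of Rgs16 with Khk in SAP to -0.028. Quantile normalization (2967 higher, 2575 lower) gave 2 fructose genes higher. A pseudocount of 0.1 gave -1.63 for Pnpla3. The 7 high-Xist libraries gave -1.0 for Mlxipl, -1.64 for Txnip, 1847 genes lower, -0.016 for Mlx and 0.12 for Kdr. Without SAP 14 and control 5, Mlx was -0.030 and 0 ChREBP targets were higher, as also with no filter. A term for the Xist split gave 2198 genes lower and -1.34 for Mlxipl. The cause was not tested. Leaving out 1 library gave 0 to 1 targets higher, Mlx from -0.042 to 0.10 and Mlxip from -0.15 to 0.17. Leaving out 1 library gave r of Rgs16 in SAP from -0.32 to 0.76 with Khk and from -0.40 to 0.34 with Tkfc. In control it gave -0.61 to 0.15 with Mlxipl, -0.11 to 0.23 with Pnpla3 and -0.27 to 0.49 with Tkfc. No paired analysis was possible because the groups share no replicate numbers. TPM keeps no depth, so the precision of low values such as those of Pnpla3 is unknown.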
